A study of Mus musculus with 6 samples.

Results

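The transcripts described here encode YAP (Yap1), TAZ (Wwtr1), the TEAD transcription factors (Tead1, Tead2, Tead3 and Tead4), the angiomotins (Amot, Amotl1 and Amotl2) and the TEAD cofactor Vgll4. They were chosen by name, as the coactivators at the end of the Hippo pathway, the DNA-binding factors they act through and the proteins that hold them back or compete with them. These are 10 of the 26231 genes in the deposited table, and 10 of 10 were among the 11067 genes tested, which are those that reached 1 RPKM in 3 libraries or more. RPKM is the number of reads per kilobase of exon, scaled to library size, so that levels of different genes can be set side by side.

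YAP and TAZ are coactivators without a DNA-binding domain of their own, and they reach promoters and enhancers by binding TEAD factors. When the Hippo kinases are active, LATS kinases phosphorylate YAP and TAZ, which are then kept in the cytoplasm or degraded. Merlin, the product of Nf2, acts upstream of LATS, angiomotins bind both Merlin and YAP, and VGLL4 competes with YAP and TAZ for TEADs. Much of this control acts on protein modification and location, which RNA levels do not measure.

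The cells were mouse embryonic fibroblasts (MEFs) on the FVB background, from embryos of about 14 days by the labels, with Nf2 alleles flanked by loxP sites in both lines and immortalized with SV40 large T antigen. MEF Nf2fl/fl, labelled WT (control), received vector-control lentivirus, and MEF Nf2-/-, labelled Nf2 KO, received lentivirus carrying Cre under the CMV promoter. All cells spent 24 h without serum before RNA was taken, and each line gave 3 libraries, marked A (replicate 1), B (replicate 2) and 2018 (replicate 3). There was 1 line of each kind and no source says that replicates were separate cultures, so the p-values measure the spread between these libraries, and an effect of Nf2 and a difference between 2 lines cannot be told apart.

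Nf2 was read first, as the check of the labels. In MEF Nf2fl/fl replicates 1 to 3 its level was 14.3, 13.7 and 13.1 RPKM, against 15.4, 12.9 and 13.9 RPKM for replicates 1 to 3 labelled MEF Nf2-/-, the order kept for every gene below. The groups overlapped and the log2 difference was 0.033 (SE 0.096; limma adjusted p = 0.987), so total Nf2 RNA did not set the lines apart, and the second line is called by its label throughout. A summed gene level need not fall when Cre removes part of a gene, and reads over single exons were not analysed here.

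Of the fibroblast markers 8 of 8 were tested, and their summed level was 1853 to 2550 RPKM for MEF Nf2fl/fl, against 1444 to 1876 RPKM under the Nf2-/- label. Pdgfra was at 12.3, 5.22 and 11.7 RPKM in the MEF Nf2fl/fl libraries, against 1.42, 0.657 and 0.962 RPKM under the Nf2-/- label. Replicates 2 and 3 under that label were thus below the 1 RPKM of the filter. The fibroblast markers Pdgfra and Fn1 were lower under the Nf2-/- label, by log2 differences of -2.35 and -0.63 (limma adjusted p = 0.0329 and 0.0390), and without replicate 1, replicate 3, any single library of those replicates or MEF Nf2-/- replicate 2, 0 of the 8 markers passed. Without the filter on low values 0 passed, and after quantile normalization 1 did. The 2 of 8 stand beside 0.578% of all genes lower. With the replicate number as a block 4 of 8 were lower, against 4.54%, Thy1 (-0.95; limma adjusted p = 0.178, and 0.00716 with the block) and Col3a1 (-1.01; 0.890, and 0.0274 with the block) being added. Summed endothelial markers (1.46 to 4.45 RPKM, nearly all of it Kdr), epithelial markers (0.251 to 1.28 RPKM) and macrophage markers (7.39 to 12.0 RPKM, mostly Cd68) were low, and Pecam1, Cdh5, Epcam and Ptprc were at 0.216 RPKM or less. The estimated depth was 13428945 to 72913348 reads a library, deepest in replicate 3, and in bulk RNA fewer cells of a type and less RNA per cell cannot be told apart.

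Short stretches before the transcription starts of 4 members are shown because they hold GGAATG, the core sequence that TEAD factors bind, in the genes for the coactivators and for those members whose lines stood furthest apart. They are RefSeq sequences of GRCm38.p6, read 5′ to 3′ along the strand that spells GGAATG, which is in capitals. The Vgll4 stretch is chr6:114969223-114969342 on the minus strand, inside an intron of a longer Vgll4 transcript, with the motif 82 bases before the start. The Yap1 stretch is chr9:8004675-8004794 on the minus strand, outside annotated exons, with the motif 141 bases before the start. The Wwtr1 stretch is chr3:57576029-57576058 on the minus strand, outside genes, with the motif 170 bases before the start, and the Amotl2 stretch is chr9:102717727-102717756 on the minus strand, opposite to the gene, in an exon of another Amotl2 transcript.
Vgll4: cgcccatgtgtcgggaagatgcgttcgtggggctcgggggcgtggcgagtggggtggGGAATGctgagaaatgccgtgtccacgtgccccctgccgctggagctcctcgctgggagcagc
Yap1: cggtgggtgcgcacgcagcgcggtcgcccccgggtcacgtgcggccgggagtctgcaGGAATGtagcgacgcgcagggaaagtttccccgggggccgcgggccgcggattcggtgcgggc
Wwtr1: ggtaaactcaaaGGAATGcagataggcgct
Amotl2: gctgctatgccaGGAATGtgagagtttcag

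RefSeq promoter windows (250 bases before to 50 after the start) were matched for 8 of the 10 members, the others being Tead1 and Tead4, and gave 11 windows. GGAATG on either strand was found in 7 of the 11 windows, from Vgll4, Yap1, Wwtr1, Amotl2 and Tead3, against 14.7% of all 32851 windows of this length and 11.8% of the windows of tested genes. The 2 Wwtr1 windows overlap and hold the same site. By gene, the motif was found in 5 of 8 members, against 16.6% of all genes with a window and 13.9% of tested genes. Tead3 held 4 of the 8 distinct sites. The windows of Amot, Amotl1 and Tead2 did not hold these letters, and neither TGANTCA, the AP-1 motif (7.81% of all windows), nor TATAAA (13.6%) was found in any of the 11, on either strand. Both genes that passed a test between the lines and genes that did not held the motif, and a match is a description of the letters only.

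Between the lines, Vgll4 was the only member that passed the test, and Amotl2 and Amot also had their 3 libraries labelled MEF Nf2-/- above all 3 MEF Nf2fl/fl libraries. The log2 difference, on the log2(RPKM + 1) scale, was above 0 in 10 of 10 members, against 47.9% of all genes tested, and its median was 0.22, against -0.0078 over all genes. With limma 1 of 10 members passed, against 1.06% of all genes (0.479% higher and 0.578% lower), and 3 of 10 had an unadjusted p under 0.05, against 9.91%. The lines did not overlap for 3 of 10 members, against 15.1% of all genes (7.6% higher and 7.52% lower). The libraries of replicate 2 shared part of their deviation, while pairing of the other numbers was not shown. A fit that took the replicate number as a block passed 3 of 10 members (Vgll4, Amotl2 and Amot), against 7.53% of all genes (2.99% higher and 4.54% lower). Higher in each of the 3 pairs were 8 of 10 members, against 22.3% of all genes. Without replicate 2, or without MEF Nf2fl/fl replicate 2, the members past the threshold were 2, Vgll4 and Amotl2, where 484 and 142 of all genes passed against 117 with all libraries. In the other 7 of 9 fits that left out a replicate number or library, 0 members passed with limma, 1 to 4 being under an unadjusted p of 0.05.

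**Figure D1:**
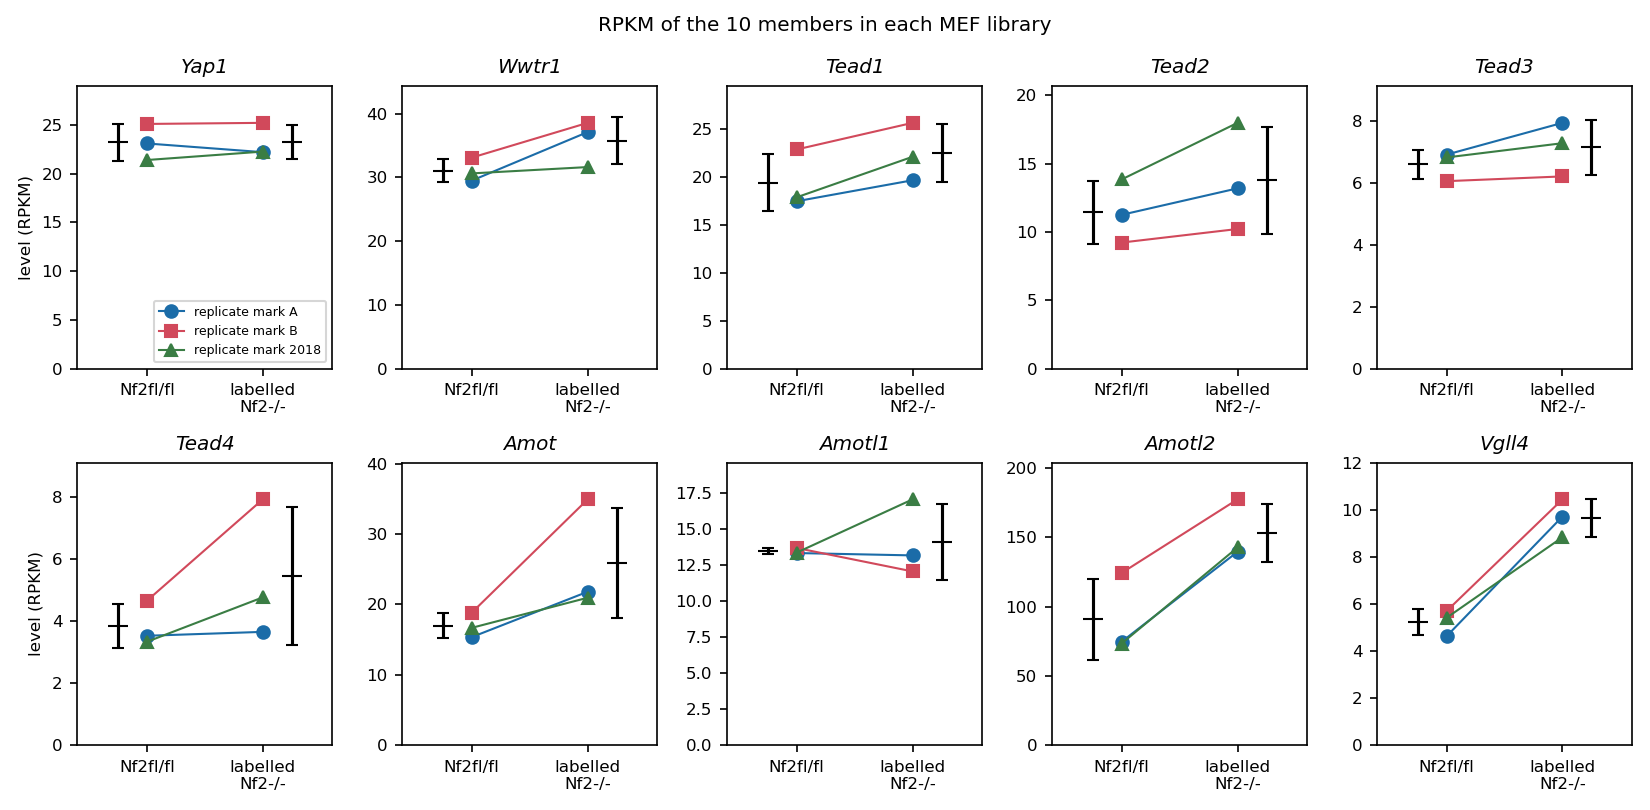
RPKM of each of the 10 members in the 6 libraries, a panel per gene with the axis from 0, MEF Nf2fl/fl at the left and the libraries labelled MEF Nf2-/- at the right; symbols and joining lines mark A, B and 2018, and black bars show the mean ± SD of 3 libraries. For Vgll4, Amotl2 and Amot every point under the Nf2-/- label lies above every MEF Nf2fl/fl point, while the lines overlap for the other members.

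Vgll4, whose protein binds TEADs in place of YAP and TAZ and is known as a repressor of their output, was at 4.63, 5.70 and 5.41 RPKM in the MEF Nf2fl/fl libraries, against 9.72, 10.5 and 8.84 RPKM under the Nf2-/- label. The lowest library under the Nf2-/- label was well above the highest MEF Nf2fl/fl library, and the means were 5.24 ± 0.555 and 9.67 ± 0.807 RPKM (SD, n = 3 each), a 1.84-fold difference. Vgll4 rose by a log2 difference of 0.77 (SE 0.11, 95% interval 0.52 to 1.03; limma adjusted p = 0.0352, and 0.00763 with the block), and it was higher in 3 of 3 pairs, by 0.93, 0.77 and 0.62. Over the 9 fits that left out a library or a replicate number the difference stayed between 0.70 and 0.85, but the adjusted p ran from 0.0135 to 0.530 and passed only without replicate 2 or without MEF Nf2fl/fl replicate 2. The gene (chr6:114860628-114969994, GRCm38) had an estimated 335 reads in its shallowest library, a counting error of 5.46%.

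The coactivators were both well expressed and neither passed the test. Yap1 (chr9:7931999-8004596) was at 23.1, 25.1 and 21.4 RPKM in the MEF Nf2fl/fl libraries, against 22.2, 25.2 and 22.3 RPKM under the Nf2-/- label. The line means were the same to 3 digits, 23.2 ± 1.85 and 23.2 ± 1.72 RPKM (SD, n = 3 each), and the interval of the log2 difference ran from -0.24 to 0.24 (limma adjusted p = 0.998), so that the data leave room for a change of either sign within those bounds.

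Wwtr1 (chr3:57455649-57575910), which encodes TAZ, was at 29.5, 33.1 and 30.6 RPKM in the MEF Nf2fl/fl libraries, against 37.1, 38.6 and 31.6 RPKM under the Nf2-/- label. It was higher in 3 of 3 pairs, although replicate 3 under the Nf2-/- label fell below replicate 2 of MEF Nf2fl/fl, and the log2 difference was 0.19 (SE 0.11, 95% interval -0.064 to 0.45; limma adjusted p = 0.702). TAZ transcripts were above YAP transcripts in all 6 libraries. The ratio of Wwtr1 to Yap1 RPKM was 1.34 ± 0.0798 in MEF Nf2fl/fl and 1.54 ± 0.126 under the Nf2-/- label (SD, n = 3 each; exact permutation test, two-sided, p = 0.2, adjusted over 8 measures 0.686), where 3 libraries against 3 cannot give a p under 0.1.

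Of the TEAD factors, which carry the DNA-binding domain, Tead1 was the highest in all 6 libraries and Tead4 the lowest in all but replicate 2 under the Nf2-/- label, where Tead3 was lower. Tead1 (chr7:112679318-112906807) was at 17.5, 22.9 and 17.9 RPKM in the MEF Nf2fl/fl libraries, against 19.6, 25.6 and 22.1 RPKM under the Nf2-/- label. Tead2 (chr7:45215753-45233644) was at 11.2, 9.22 and 13.8 RPKM, then 13.2, 10.2 and 18.0 RPKM in the same order. Both were higher in 3 of 3 pairs with overlapping groups, and the log2 differences were 0.20 (SE 0.14; limma adjusted p = 0.818) and 0.23 (SE 0.22; limma adjusted p = 0.903). These ran from 0.11 (without MEF Nf2-/- replicate 2) to 0.32 (without MEF Nf2fl/fl replicate 2) for Tead1 and from 0.037 (without MEF Nf2-/- replicate 3) to 0.42 (without MEF Nf2-/- replicate 2) for Tead2.

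Tead3 (chr17:28331671-28350817) was at 6.90, 6.05 and 6.81 RPKM in the MEF Nf2fl/fl libraries, against 7.93, 6.20 and 7.27 RPKM under the Nf2-/- label. Tead4 (chr6:128224288-128300823) was at 3.53, 4.66 and 3.34 RPKM, then 3.66, 7.94 and 4.77 RPKM, with replicate 2 under the Nf2-/- label standing well above the other 5 libraries. The log2 differences between the lines were 0.097 for Tead3 (SE 0.11; limma adjusted p = 0.937) and 0.37 for Tead4 (SE 0.25; limma adjusted p = 0.799). Leaving out a library or replicate number moved them to between 0.026 (without MEF Nf2-/- replicate 1) and 0.18 (without MEF Nf2-/- replicate 2) for Tead3, and to between 0.11 (without MEF Nf2-/- replicate 2) and 0.58 (without MEF Nf2-/- replicate 1) for Tead4. Tead4 also rested on the fewest reads, an estimated 171 in its shallowest library, where counting error alone is 7.65%.

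Added together, the TEAD transcripts came to 41.3 ± 1.89 RPKM for MEF Nf2fl/fl and 48.8 ± 3.98 RPKM under the Nf2-/- label (SD, n = 3 each), without overlap. Their shares overlapped between the lines: Tead1 made up 46.9% and 46.0% of the sum, Tead2 27.8% and 28.2%, Tead3 16.0% and 14.7%, and Tead4 9.30% and 11.1%. The exact permutation test, two-sided, gave p = 0.6 to 0.9 for these 4 shares.

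**Figure D2:**
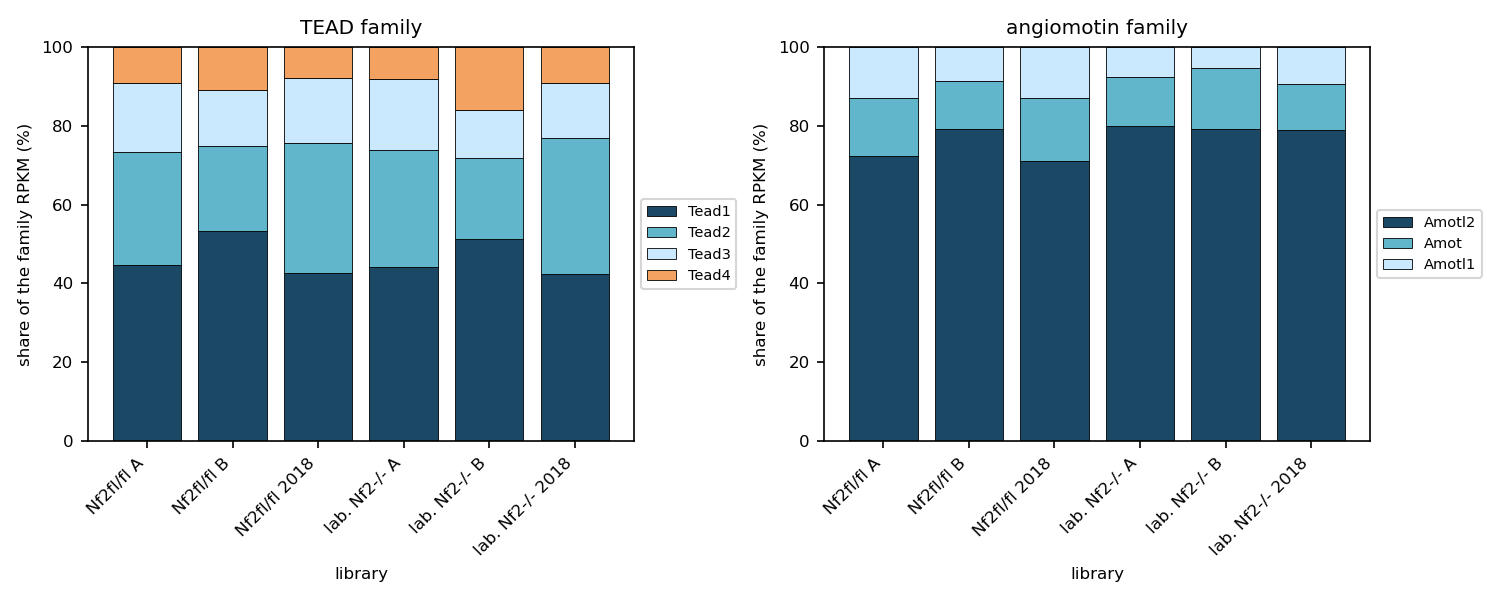
Share of each gene in the summed RPKM of the TEAD family (left) and the angiomotin family (right), in percent, for each of the 6 libraries (bars). In the libraries marked B the Tead1 and Tead4 segments are larger and the Tead2 segment smaller (Tead2 21.0% on average, against 31.5% in the other libraries), and Amotl2 makes up most of the angiomotin sum in every library.

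Of the angiomotins, junction and actin scaffolds that bind YAP through PPxY-type motifs, Amotl2 was by far the most abundant. Amotl2 (chr9:102716672-102733418) was at 74.6, 124 and 73.3 RPKM in the MEF Nf2fl/fl libraries, against 140, 177 and 143 RPKM under the Nf2-/- label. Replicate 2 was the highest library of each line, and the groups did not overlap. The log2 difference was 0.79 (SE 0.22, 95% interval 0.25 to 1.32), about the size of that of Vgll4, but limma gave an adjusted p of 0.247, and 0.0162 with the block. It was higher in 3 of 3 pairs, by 0.90, 0.51 and 0.95, and the adjusted p was 0.00693 without replicate 2 (log2 difference 0.92) and 0.0325 without MEF Nf2fl/fl replicate 2 (1.03), but 0.392 to 0.9998 in the other 7 fits that left out a library or replicate number (log2 difference 0.66 to 0.85).

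Amot (chrX:145446425-145505181), the founding member of the family, was at 15.3, 18.8 and 16.7 RPKM in the MEF Nf2fl/fl libraries, against 21.8, 34.9 and 20.9 RPKM under the Nf2-/- label. The groups did not overlap, and replicate 2 under the Nf2-/- label was much higher than the others. The log2 difference was 0.55 (SE 0.20, 95% interval 0.066 to 1.04; limma adjusted p = 0.408, and 0.0478 with the block), and it was 0.32 without MEF Nf2-/- replicate 2. Its pairs differed by 0.48, 0.86 and 0.31, and Amot was the only member with an unadjusted p under 0.05 (0.0320) in the test of whether the line difference was another one in replicate B. That test passed for 0 of 11067 genes with limma, 313 genes (2.83%) being under an unadjusted p of 0.05.

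Amotl1 (chr9:14541966-14645056), the third angiomotin, was at 13.3, 13.7 and 13.3 RPKM in the MEF Nf2fl/fl libraries, against 13.2, 12.0 and 17.0 RPKM under the Nf2-/- label. The MEF Nf2fl/fl libraries were nearly equal, and those labelled MEF Nf2-/- fell on both sides of them. The log2 difference was 0.048 (SE 0.13; limma adjusted p = 0.987). Summed angiomotin transcripts were 121 ± 30.9 and 193 ± 27.2 RPKM (SD, n = 3 each), without overlap. Amotl2 made up 74.2% and 79.3% of them, Amot 14.3% and 13.2%, and Amotl1 11.5% and 7.44% (exact permutation test, two-sided, p = 0.2 to 0.6 for the 3 shares). That test did not use the replicate numbers. By number, the Amotl1 share was 12.9%, 8.72% and 12.9% in MEF Nf2fl/fl, against 7.53%, 5.36% and 9.43% under the Nf2-/- label, lower in each pair. The Amotl2 and Amot shares moved both ways.

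Ranked by mean RPKM in MEF Nf2fl/fl, the order was Amotl2, Wwtr1, Yap1, Tead1, Amot, Amotl1, Tead2, Tead3, Vgll4 and Tead4. The ranges of the neighbours Yap1 and Tead1, Tead1 and Amot, Amotl1 and Tead2, and Vgll4 and Tead4 overlapped between libraries. Within each MEF Nf2fl/fl library the same order held for these neighbours, except that Tead2 was above Amotl1 in replicate 3. Under the Nf2-/- label Amot stood above Yap1 and Tead1 by its mean (25.9 ± 7.84 RPKM). The place above Yap1 rests on replicate 2, since Amot was below Yap1 in replicates 1 and 3, while it was below Tead1 in replicate 3 only. Vgll4 stood above Tead3, whose highest library (7.93 RPKM) was below the lowest of Vgll4 (8.84 RPKM).

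The libraries marked B stood apart from A and 2018 in both lines, and what the marks stand for is not stated. This split was taken up because it was seen in these data, so its values are a description. With the line as a covariate, 5 of 10 members passed, 4 higher in B (Tead4, Amotl2, Amot and Tead1) and 1 lower (Tead2), against 30.6% of all genes (10.8% higher and 19.8% lower). All 5 calls were lost without the filter on low values and without the covariate, where 0 members passed with limma and 7 and 5 were under an unadjusted p of 0.05. The direction of calls over all genes depended on scaling, with 1195 higher and 2191 lower as deposited but 1698 and 1536 after median centring and 1553 and 1412 after quantile normalization. The median over all genes was -0.078 and that of the members 0.16, 7 of 10 members were above 0, against 39% of all genes, and 6 of 10 had a larger absolute difference in B than between the lines, against 67.7% of all genes.

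**Figure D3:**
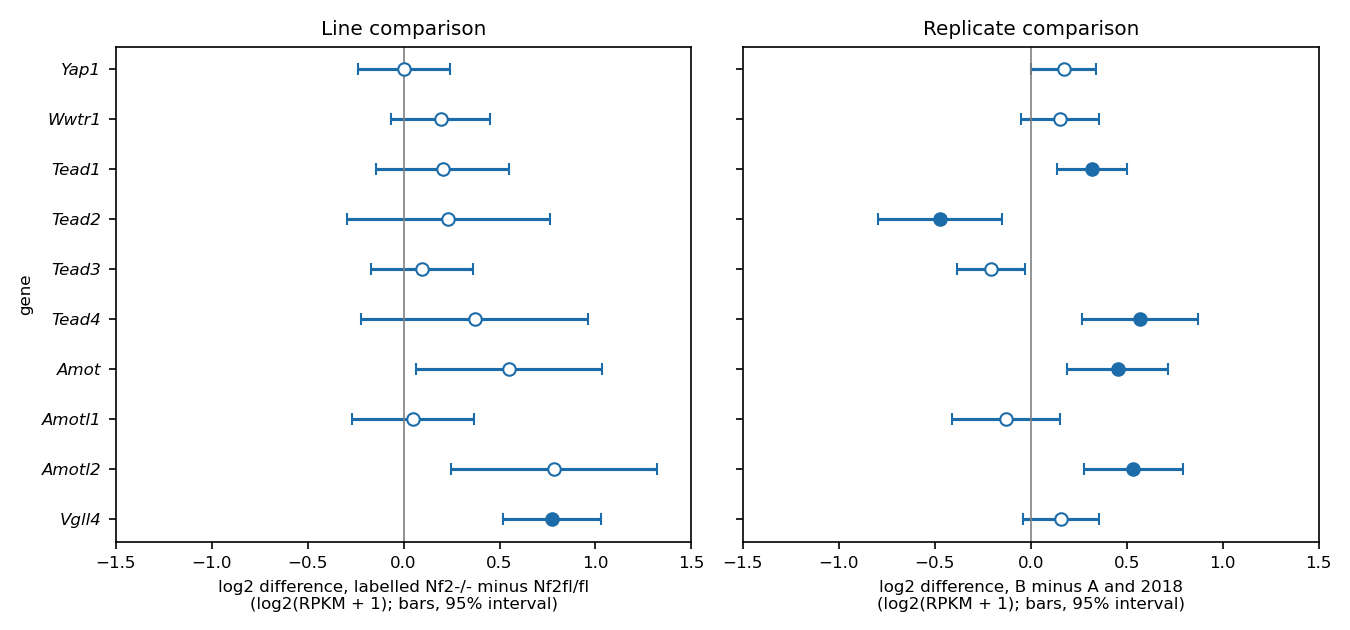
Log2 difference of each member on the log2(RPKM + 1) scale with its unadjusted 95% interval, between the lines (labelled Nf2-/- minus Nf2fl/fl) and between B and the other libraries; filled points have a limma adjusted p under 0.05. Vgll4 is the filled point between the lines (0.77), and Tead4, Amotl2, Amot, Tead1 and Tead2 are filled for B.

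Tead1 was higher and Tead2 lower in both B libraries than in any of the other 4, with log2 differences of 0.32 (SE 0.078; limma adjusted p = 0.0216) and -0.47 (SE 0.14; limma adjusted p = 0.0384). The TEAD make-up in B was thus 52.3% Tead1, 21.0% Tead2, 13.3% Tead3 and 13.4% Tead4, against 43.5%, 31.5%, 16.4% and 8.60% in A and 2018. The call for Tead2 was lost after median centring (-0.40; limma adjusted p = 0.0805) and quantile normalization (-0.43; 0.0622), while its direction held. The Tead1 call was lost without replicate 1, without MEF Nf2fl/fl replicate 3 or without the B library of either line (limma adjusted p = 0.0536 to 0.202), and that of Tead2 without replicate 3, MEF Nf2fl/fl replicate 3 or either B library (0.0543 to 0.266).

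Tead4 was higher in B by 0.57 (SE 0.13; limma adjusted p = 0.0176), although the B library of MEF Nf2fl/fl, at 4.66 RPKM, was below replicate 3 under the Nf2-/- label, at 4.77 RPKM. Without MEF Nf2-/- replicate 2 the difference was 0.35 (limma adjusted p = 0.220). Amotl2 was higher in B by 0.53 (SE 0.11; limma adjusted p = 0.0124) and Amot by 0.45 (SE 0.11; limma adjusted p = 0.0229). The rise of Amotl2 in B was 0.74 within MEF Nf2fl/fl and 0.33 within the libraries labelled MEF Nf2-/-, and that of Amot was 0.22 and 0.68 in the same order. The Amotl2 call was lost without MEF Nf2fl/fl replicate 2 (limma adjusted p = 0.180), and the Amot call without MEF Nf2-/- replicate 2 (0.288) or without replicate 1 (0.107).

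The other members did not pass for B. Yap1 was higher in both B libraries than in the other 4, by 0.17 (SE 0.072; limma adjusted p = 0.108), and it passed after median centring (0.24; 0.0411). Tead3 was lower in both, by a log2 difference of -0.21 (SE 0.075; limma adjusted p = 0.0749). Wwtr1 differed by 0.15 (limma adjusted p = 0.218), Amotl1 by -0.13 (0.436) and Vgll4 by 0.16 (0.196). The B libraries did not overlap the others for 4 of 10 members, Yap1, Tead1, Tead2 and Tead3, against 46.6% of all genes (16.8% higher and 29.8% lower). Of the fibroblast markers, 5 of 8 were lower in B, against 19.8% of all genes (Col1a1, Col1a2, Col3a1, Pdgfra and Pdgfrb). The other 3, Thy1 (0.48), Vim (0.11) and Fn1 (0.037), were above 0 and did not pass with limma. The summed levels of the list were 1444 and 1853 RPKM in B against 1654 to 2550 RPKM. The endothelial marker Kdr, the 1 of 6 tested, was higher in B (3.75 and 4.39 RPKM against 1.32 to 1.74 RPKM; log2 difference 1.02, limma adjusted p = 0.00165). The part of these markers in the members' values was not tested.

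The kinases and scaffolds upstream of YAP and TAZ were read from a list of 18 genes, of which 17 were tested. Between the lines 0 of 17 passed with limma, with a median log2 difference of 0.091, and 2 passed with the block, where 7.53% of all genes did: Wwc1, encoding the Merlin partner KIBRA (0.86; limma adjusted p = 0.101, and 0.00922 with the block), and Lats2, encoding a YAP kinase (0.55; 0.617, and 0.0159 with the block). Without replicate 2 there were 2 past the threshold, and without MEF Nf2fl/fl replicate 2 there was 1. Wwc1 was at 6.56, 9.38 and 6.04 RPKM in the MEF Nf2fl/fl libraries, against 12.0, 15.8 and 14.1 RPKM under the Nf2-/- label, without overlap. In B, 5 were higher (Fat4, Lats2, Frmd6, Wwc2 and Wwc1, by 0.38 to 0.83) and 2 lower (Taok2 and Taok3, by -0.27 and -0.40), where 10.8% of all genes were higher and 19.8% lower. These 7 became 0 without MEF Nf2fl/fl replicate 2 and without a covariate for the line, 2 without MEF Nf2-/- replicate 2 or replicate 1, and 4 without replicate 1 of either line.

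Of the 14-3-3 proteins, ubiquitin ligase subunits and casein kinases that retain or degrade YAP and TAZ, 10 of 11 were tested and 0 passed between the lines with limma, with or without the block. The most abundant, Ywhae and Ywhaz, were at a mean of 250 and 135 RPKM for MEF Nf2fl/fl and 255 and 136 RPKM under the Nf2-/- label. Csnk1e, encoding a casein kinase, was the 1 of 10 that rose in B (0.49; limma adjusted p = 0.00757), where 10.8% of all genes were higher, and 0 of the list passed without the filter or without the B library of either line.

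Proteins that bind or turn over angiomotins were represented by 14 genes, all tested, with 0 past the threshold between the lines with limma and a median difference of -0.00073. With the block the scaffold gene Magi1 was higher (0.44; adjusted p = 0.0426) and the ubiquitin ligase gene Nedd4l lower (-0.39; 0.0423), where 7.53% of all genes passed. Nedd4, encoding a related ligase and the most abundant of the list, was lower in B (-0.32; limma adjusted p = 0.0372), as 1 of 14 where 19.8% of all genes were lower, and it did not pass without replicate 3, MEF Nf2fl/fl replicate 3 or the B library of either line.

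Genes listed as YAP/TAZ targets did not move one way between the lines. The list held none of the members, so Amotl2 and the others are not in its counts. Of 21 listed genes 19 were tested, 11 were above 0 and 8 below, where 47.9% of all genes were above 0, and the median was 0.095. Only Tgfb2, a secreted growth factor, passed with limma (1.36, adjusted p = 0.0301), where 1.06% of all genes did. With the block 3 were higher (Tgfb2, Lats2 and Rbms3) and 3 lower (Axl, Foxf2 and Dock5), where 2.99% of all genes were higher and 4.54% lower. Without replicate 2 the target genes past the threshold were 6 with limma, where 484 of all genes passed against 117 with all libraries. Without replicate 1, replicate 3 or any single library of those replicates 0 target genes passed, as was the case without the filter on low values. In B, 8 rose and 3 fell, where 10.8% of all genes were higher and 19.8% lower. The 11 became 4 without MEF Nf2fl/fl replicate 2 and 6 without MEF Nf2-/- replicate 2. The rises were Ccn2 (3.17), Ccn1 (2.10), F3 (1.73), Ankrd1 (1.73), Lats2 (0.68), Axl (0.60), Foxf2 (0.55) and Fjx1 (0.34), and the falls Gadd45a (-0.67), Rbms3 (-0.45) and Arhgef17 (-0.26).

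**Figure D4:**
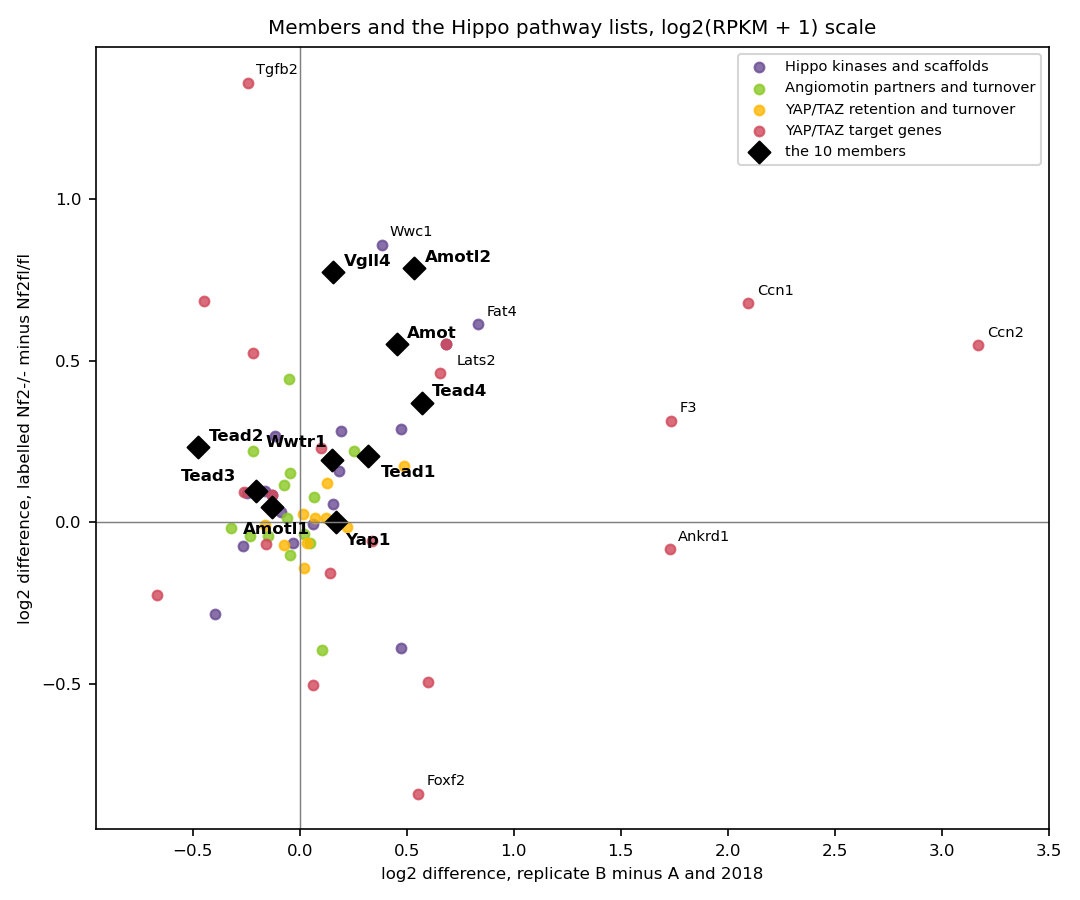
Log2 difference in B (horizontal axis) against log2 difference between the lines (vertical axis), on the log2(RPKM + 1) scale, for the 10 members (black diamonds) and the tested genes of the Hippo pathway lists (coloured points, names given for those that lie far out). Vgll4 (0.77) and Amotl2 (0.79) lie high on the vertical axis near Wwc1, and Ccn2, Ccn1, F3 and Ankrd1 lie far to the right.

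Ccn2, which encodes a matricellular protein, was at 739 and 673 RPKM in the B libraries, against 44.5, 71.9, 79.1 and 141 RPKM in the others. Ccn1, of the same family, was at 733 and 762 RPKM in B against 117 to 263 RPKM. The coactivators in the same libraries stood at 25.1 and 25.2 RPKM for Yap1 in B against 21.4 to 23.1 RPKM, and at 33.1 and 38.6 RPKM for Wwtr1 against 29.5 to 37.1 RPKM. Ccn2 and Ccn1 had the 2 largest differences in B of the list, and 8 of the 19 targets tested did not pass. Of the cell division genes, 10 of 10 were tested, 0 passed between the lines with limma and 3 rose in B (Ccna2, Cdk1 and Aurka, by 0.37, 0.49 and 0.31), where 10.8% of all genes were higher, and 0 without the B library of either line. Like the members, these 10 genes were all above 0 between the lines (median 0.11).

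For each member that passed in either comparison, the gene with the most similar profile over the 6 libraries was found among all tested genes, as the smallest root mean square difference of centred log2(RPKM + 1) values. It was Tec for Vgll4 (0.079), Camsap1 for Tead1 (0.034), Cyba for Tead2 (0.054), Tank for Tead4 (0.090), Ror1 for Amot (0.064) and, from the pathway list above, Wwc1 for Amotl2 (0.11). The median distance to all genes was 0.27 to 0.52 for these members. The smallest of 11066 distances over 6 libraries lies below the median by construction, so these matches are a description only.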

How the data were processed

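RNA from 3 libraries of MEF Nf2fl/fl and 3 labelled MEF Nf2-/- was sequenced by GENEWIZ. The authors deposited 1 table of normalized values, taken here as RPKM. The aligner and counting tool are not given in the sources used here, and the submitters' processing notes name the build mm10. The unit was worked out from low values: with GENCODE vM21 exon lengths, 83.5% to 85.4% of values up to 20 reads were whole reads within 0.05, against 10% for uniform values, and this step gave the estimated depths and reads.

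Values were set to log2(RPKM + 1). The test was limma 3.58.1, run in R 4.3.3 on genes that reached 1 RPKM in 3 libraries or more, two-sided (lmFit, then eBayes with its trend and robust options), p-values being adjusted across those genes (Benjamini-Hochberg, threshold 0.05), without a block for the lines and with the line as covariate for B. An interaction term tested whether the line difference was another one in B. Shares were compared by exact permutation tests. After subtraction of line means, the libraries that share a number correlated across genes at 0.552, 0.819 and 0.516, and the numbers were taken as pairs. Deviations of 3 libraries sum to 0, and B stood apart in both lines. The correlations for replicates 1 and 3 would therefore be raised without any pairing, and they cannot show that these libraries are pairs. Correlations between different numbers were not computed. Members share at most 1.89% of their 31-base stretches with other genes (Yap1), and 1.25% of Yap1 exon bases lie antisense to Gm20416; strand use in counting is not stated.

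The members, gene lists (written by hand from general knowledge) and tests were chosen with earlier results of these data known. Named are all members, Nf2 and the nearest profile of members past the threshold. List genes are named where they passed the threshold in either comparison, or otherwise as the 2 highest of a list. Those named beyond these were chosen after their values were seen. They are the cell type markers Pecam1, Cdh5, Epcam, Ptprc and Vim, Ywhae and Ywhaz, the muscle markers, Vgll2, and genes past the threshold with the block. The scripts were tested on simulated data. Alternatives were a smaller pseudocount (0.1), median centring, quantile normalization, a higher filter (5 RPKM) or none, limma with neither trend nor robust options, the replicate block, no covariate, and each replicate number or library left out. Protein sequence features were not used here. Figures were drawn with matplotlib 3.10.9.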

Additional observations from a re-analysis of the deposited data

How the results depend on the processing

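Between the lines, 117 of all genes and 1 member passed with limma. Without the filter these were 9 and 0 (3 members at an unadjusted p under 0.05; Vgll4 adjusted p = 0.137), with a filter of 5 RPKM 63 genes, and with the replicate block 833 and 3. Leaving out a replicate number or library gave 0 to 484 genes (556 to 1743 at an unadjusted p under 0.05) and 0 to 2 members (1 to 4). The count was 0 genes without replicate 1 or replicate 3. The block changed the calls of Amotl2 and Amot and of no other member. For B, 3386 genes and 5 members passed. These became 884 and 0 without the filter (7 members at an unadjusted p under 0.05), 1976 and 0 without a covariate for the line (5 members), and 699 to 3375 and 1 to 5 with a library or number left out, lowest without MEF Nf2-/- replicate 2 and next without MEF Nf2fl/fl replicate 2 (832 genes, 2 members). The causes were not tested. The difference changed sign when libraries were left out for Yap1 between the lines (-0.056 to 0.058), for Amotl1 between the lines (-0.093 to 0.16) and for Amotl1 in B (-0.29 to 0.033), and the difference in the Amot share ran from -3.45 to 0.593 percentage points and that in the Tead2 share from -0.0855 to 1.19. The other members kept their direction in both comparisons under these alternatives. B could not be fitted without replicate 2, and Tead4 had no value with the filter of 5 RPKM. Depth limits Tead4 and Vgll4 most, in replicates 1 and 2.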

Other observations

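Of the other vestigial-like TEAD cofactors, Vgll3 was tested and Vgll2 was under the filter. Vgll3 was at 21.5, 50.1 and 22.8 RPKM for MEF Nf2fl/fl, against 26.9, 50.5 and 31.2 RPKM under the Nf2-/- label, so that both B libraries were above the other 4. Its log2 difference in B was 0.96 (SE 0.11; limma adjusted p = 0.00202) and between the lines 0.25 (SE 0.37; limma adjusted p = 0.956), while that of Vgll4 was 0.16 in B and 0.77 between the lines. Vgll2 was listed at 0.0450, 0 and 0 RPKM in MEF Nf2fl/fl and at 0.804, 2.04 and 1.24 RPKM under the Nf2-/- label, without overlap and without a test.

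Of 7 skeletal muscle markers 6 were matched in the table (not Myod1), and all 6 were under the filter. Their summed level was 3.13 and 6.63 RPKM in the B libraries and 0.882 to 1.22 RPKM in the other 4. Nearly all of the excess was Acta1, skeletal muscle actin, at 6.25 and 2.57 RPKM against 0.252 to 0.606 RPKM, while Des, Myog, Ckm, Tnnt1 and Myh3 were not higher in both B libraries than in the other 4.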
